A study of Mus musculus with 2 samples.

Results

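The metallothioneins Mt1, Mt2 and Mt3 and 7 target genes of the transcription factor NRF2 (Hmox1, Nqo1, Gclc, Gclm, Srxn1, Txnrd1 and Slc7a11) were examined in cultured astrocytes of the dentate gyrus (DG). These 10 genes were taken by symbol from the joined expression tables of 1 WT library and 1 β-arr1 KO library, which hold 16302 genes in all. Rows were present for 9 of the 10 genes in both tables, while Mt2 had no row of its own in either. The comparison asks how far the metal-binding and antioxidant genes of these astrocytes differ in level once β-arr1 is absent.

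Metallothioneins are small cysteine-rich proteins that bind zinc and copper and are strongly expressed by astrocytes, where they buffer metals and scavenge radicals. Mt1 and Mt2 are switched on by the zinc sensor MTF1 through metal response elements in their promoters, and also by glucocorticoids and oxidative stress. NRF2, encoded by Nfe2l2, is held in the cytoplasm and degraded with the help of KEAP1 until oxidants or electrophiles modify KEAP1. It then pairs with small MAF proteins at antioxidant response elements and activates genes of glutathione synthesis, thioredoxin recycling, heme breakdown and quinone reduction. Astrocytes are known for a strong NRF2 response that also supplies neighbouring neurons with glutathione precursors.

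Both groups were C57BL/6 mice by the labels, and the methods give a C57BL/6J background. The KO mice carry a germline deletion of β-arr1 (Arrb1, a scaffold protein of G protein-coupled receptors that also enters the nucleus), and the WT mice carry the intact gene. According to the methods and labels, cells of adult DG were grown in serum-containing medium with selenite, insulin and transferrin, shaken to remove dividing cells, precursors of oligodendrocytes and neurons, and sequenced as pooled cDNA. The same medium was used for both genotypes. Expression was given as FPKM, a count of fragments divided by transcript length in kilobases and by library depth, so that levels are per length and can be compared between genes. The ratio of KO to WT was computed without a pseudocount, and a gene was analysed when it reached 1 FPKM in WT, KO or both. Since each genotype has 1 library, no replicate spread and no test exist, and each ratio is given with a 95% counting interval (exact Clopper-Pearson) from the fragments estimated behind it. The intervals cover counting error only. PCR-amplified fragments are not independent molecules, so the intervals may be too narrow.

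The libraries were of like depth, with an estimated 9.54 M mapped fragments in WT and 9.82 M in KO. Arrb1 was listed at 7.62 FPKM in WT and 2.72 in KO, a ratio of 0.358. One value per gene does not show from which part of Arrb1 the fragments in KO came. Astrocyte markers were all listed in both libraries, with Gfap at 189 FPKM in WT and 192 in KO. Markers of microglia were listed too (9 of 9), as were 4 of 5 markers of fibroblasts and mural cells. Of the 6 neuronal markers, Rbfox3, Syt1, Snap25 and Dcx were below 0.3 FPKM or unlisted, Prox1 stood at 1.05 FPKM in WT and 2.17 in KO (ratio, 2.07), and Tubb3 stood at 44.7 and 59.8 FPKM (1.34). Their summed level went from 46.2 to 62.5 FPKM. Genes of chromosome Y were listed in KO (4 genes) and not in WT, so that genotype and the sex of the mice cannot be told apart. In bulk RNA, fewer cells of a type and less RNA per cell cannot be told apart either.

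The promoters are shown for the 3 metallothioneins, whose rows had the highest ratios of the members, for Gclm, whose window holds an antioxidant response element core, and for Slc7a11, the member with the lowest ratio. The sequences are 250-base stretches of RefSeq promoter windows (table build GRCm38.p6). Each whole window was found once on the chromosome of its gene in the mm9 assembly (NCBIM37), which gave the positions of the stretches. Other chromosomes were not searched. Each stretch is written 5′ to 3′ on the strand of the gene and ends at the base before the annotated start. Capitals mark matches to the metal response element core (TGCACNC or TGCGCNC) in the metallothionein promoters and to the antioxidant response element core (TGACNNNGC) in the others, on either strand.
Mt1 (chr8:96702739-96702988, plus strand): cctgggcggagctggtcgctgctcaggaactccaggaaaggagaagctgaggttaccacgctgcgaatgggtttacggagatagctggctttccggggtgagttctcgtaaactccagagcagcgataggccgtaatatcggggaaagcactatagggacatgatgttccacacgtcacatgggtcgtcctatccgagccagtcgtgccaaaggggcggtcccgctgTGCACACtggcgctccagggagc
Mt2 (chr8:96696268-96696517, plus strand): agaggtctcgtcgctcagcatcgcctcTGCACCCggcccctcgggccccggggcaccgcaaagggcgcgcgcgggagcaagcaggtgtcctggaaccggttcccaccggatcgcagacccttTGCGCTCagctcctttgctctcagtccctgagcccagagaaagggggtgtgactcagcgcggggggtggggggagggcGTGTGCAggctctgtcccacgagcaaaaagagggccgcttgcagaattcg
Mt3 (chr8:96676257-96676506, plus strand): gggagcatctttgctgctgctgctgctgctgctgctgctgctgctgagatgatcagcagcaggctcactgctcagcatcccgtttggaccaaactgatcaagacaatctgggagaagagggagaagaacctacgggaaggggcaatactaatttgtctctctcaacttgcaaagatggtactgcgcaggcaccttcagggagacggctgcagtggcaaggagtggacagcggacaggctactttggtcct
Gclm (chr3:121948225-121948474, plus strand): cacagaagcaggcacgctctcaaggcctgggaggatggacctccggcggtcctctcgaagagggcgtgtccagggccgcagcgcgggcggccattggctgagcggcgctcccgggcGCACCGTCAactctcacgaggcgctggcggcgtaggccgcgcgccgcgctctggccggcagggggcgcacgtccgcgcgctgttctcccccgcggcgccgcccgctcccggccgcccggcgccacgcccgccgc
Slc7a11 (chr3:50247536-50247785, minus strand): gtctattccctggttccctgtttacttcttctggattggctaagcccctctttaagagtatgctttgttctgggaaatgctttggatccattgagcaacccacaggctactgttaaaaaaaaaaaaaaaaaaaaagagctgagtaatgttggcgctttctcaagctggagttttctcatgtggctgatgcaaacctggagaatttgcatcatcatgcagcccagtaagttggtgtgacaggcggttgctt

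Windows of 300 bases, from 250 before to 50 after the start, were present for 8 of the 10 members and for 32851 transcription starts in all. Hmox1 and Gclc had no window in the table. Positions are counted from -1 at the base before the start and from 1 at the start. The metal response element core was found 4 times in the Mt2 window, at -223 to -217, -128 to -122, -50 to -44 and 5 to 11. Only 0.517% of all windows hold as many. The Mt1 window held it 3 times (-23 to -17, 3 to 9 and 21 to 27), and 1.97% of all windows hold at least 3. Mt1 has 2 annotated coding transcripts, and its window is that of the start furthest upstream. Bases more than 50 past that start were not searched, so the counts of Mt1 and Mt2 are not a comparison of whole promoters. The Mt3 window held 1 match, at 28 to 34, and 25.7% of all windows hold at least 1. The Mt3 match lies past the start, so that its printed promoter has no capitals. The antioxidant response element core, present in 12.4% of all windows, was found in Mt2 (-79 to -71), Gclm (-134 to -126), Srxn1 (29 to 37) and 1 of 3 Txnrd1 windows (-92 to -84). The Gclm window also held 3 metal response element cores, 1 of which (-138 to -132) overlaps its antioxidant match, and the Srxn1 window held 1. Neither set of letters was present in the windows of Nqo1 and Slc7a11. Bases further than 250 before a start were not searched, so an absence holds for the window only. A match is a description of letters and says nothing about binding.

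The metallothionein rows were the members with the highest ratios of KO to WT. Mt1 and Mt2 encode the metal-inducible metallothioneins found in most tissues, and Mt3 encodes the brain form. In mm9 the 3 genes lie on the plus strand of chromosome 8, with Mt3 at 96676507 to 96678048, Mt2 at 96696518 to 96697467 and Mt1 at 96702989 to 96704225. The longest transcripts have 538, 556 and 631 bases in 3, 3 and 2 exons. The row named Mt1 runs from 96696518 to 96704227 in both tables. It starts at the first base of Mt2, ends 2 bases past Mt1 and spans 7710 bases, 5521 of which lie between the genes. The value of this row therefore cannot be divided between Mt1 and Mt2. Mt1 and Mt2 transcripts share no run of bases longer than 20, which is shorter than a read. Such rows are not rare: of rows at 1 FPKM or more, 563 (4.65%) in WT and 552 (4.53%) in KO hold another whole coding gene that has no row. Mt4, the remaining gene of the cluster, had no row in either table.

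**Figure D1:**
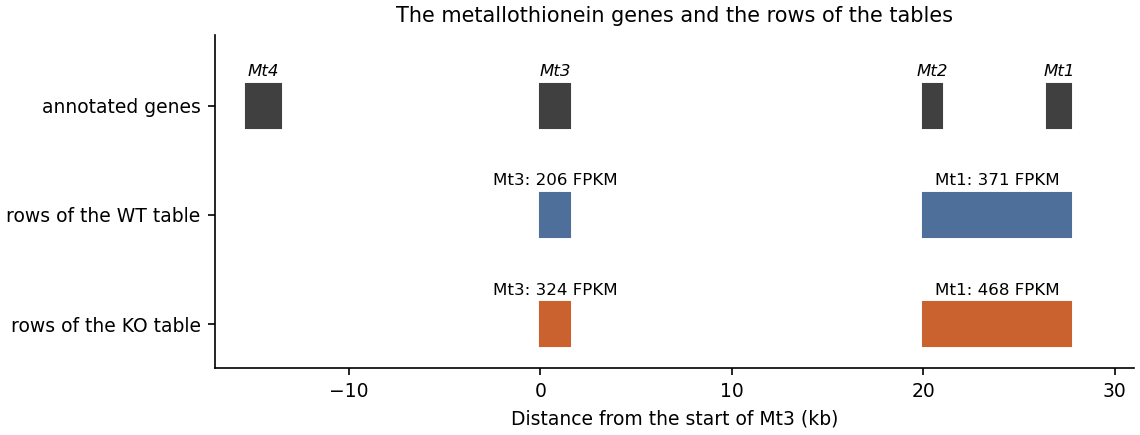
Map of the metallothionein cluster along the plus strand, as distance from the start of Mt3 in kb, with the annotated genes (top) and the rows of the WT and KO tables (middle and bottom) drawn to scale. The row named Mt1 covers Mt2 and Mt1 in both tables (371 and 468 FPKM), and Mt3 has its own row (206 and 324 FPKM).

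The Mt1 row stood at 371 FPKM in WT (counting interval, 354 to 390) and at 468 in KO (448 to 488). The ratio was 1.26 (1.18 to 1.34), between the limits of 3/2 and 2/3 that the study uses for a change. In the count made here, 17.8% of all 12646 analysed genes were past them. The study reported a smaller share from its own set of genes. The row was the highest of the members in both libraries and lay at the 99.4th percentile of all listed rows in WT and the 99.5th in KO. The fragments behind it (1634 and 2118) were estimated with the Mt1 transcript length although the row holds both genes, so this interval is approximate. Mt3 stood at 206 FPKM in WT (191 to 222) and at 324 in KO (306 to 343). Its ratio of 1.57 (1.43 to 1.73) was above 3/2, although the interval reaches below that limit. The 2 rows together gave 578 FPKM in WT and 792 in KO, a ratio of 1.37, or 0.154% and 0.212% of all FPKM. The Mt1 row was 1.80 times the level of Mt3 in WT and 1.44 times in KO. Of the 9 astrocyte markers, 4 (Aqp4, S100b, Slc1a2 and Aldoc) were above 3/2 and none below 2/3, and their summed level was 313 FPKM in WT and 358 in KO (ratio, 1.14). The part of astrocyte content in the metallothionein ratios was not tested.

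**Figure D2:**
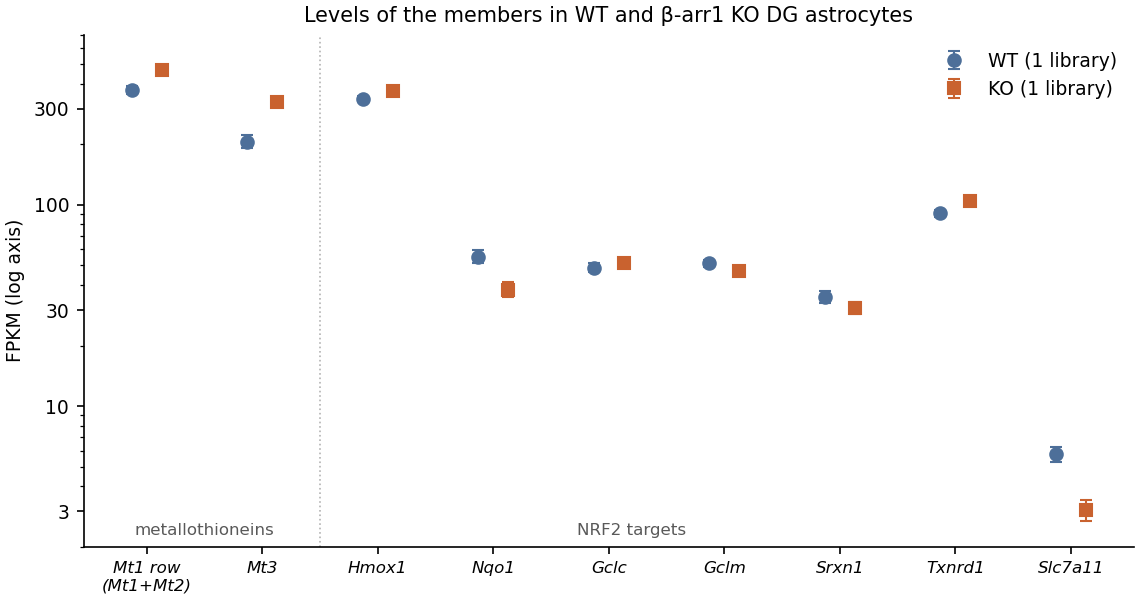
FPKM (log axis) of the 9 members with a row, in the WT library (circles) and the KO library (squares), with 95% counting intervals. The Mt1 row, Mt3 and Hmox1 lie at 206 FPKM or higher in both libraries, and Slc7a11 lies far below the other members.

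Heme oxygenase 1 (Hmox1, chromosome 8, 77617490 to 77624495, plus strand) breaks heme down to biliverdin, iron and carbon monoxide and is the classical stress-induced NRF2 target. It was listed at 336 FPKM in WT (326 to 346) and 366 in KO (356 to 376). The ratio was 1.09 (1.05 to 1.13) from an estimated 4601 and 5158 fragments, a small difference that counting error at the length of the longest transcript does not cover. With the length of the shortest coding transcript the interval was 0.999 to 1.19 and included 1. Hmox1 was the member next to the Mt1 row in level in both libraries, and stood at 10.3 times the level of the constitutive enzyme Hmox2 in WT and at 11.3 times in KO.

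NAD(P)H quinone dehydrogenase 1 (Nqo1, chromosome 8, 109912125 to 109927106, minus strand) reduces quinones and is a standard readout of NRF2 activity. Its level was 55.3 FPKM in WT (51.4 to 59.5) and 37.9 in KO (34.7 to 41.3). The ratio of 0.685 (0.611 to 0.768) lay just inside the lower limit, and its interval spans that limit. Nqo1 was the fifth of the members by level in WT and the seventh in KO, where it lay below Gclc and Gclm.

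The subunits of glutamate cysteine ligase, which catalyses the first and rate-limiting step of glutathione synthesis, both lay between the limits. The catalytic subunit Gclc (chromosome 9, 77602342 to 77642292, plus strand) was listed at 48.8 FPKM in WT and 51.6 in KO, with a ratio of 1.06 (0.986 to 1.13). It was the only one of the 9 members whose interval included 1 at the length of the longest transcript. The modifier subunit Gclm (chromosome 3, 121948475 to 121972902, plus strand) was listed at 51.2 FPKM in WT and 46.7 in KO, with a ratio of 0.912 (0.859 to 0.968). The bounds of the Gclm row differ between the tables, as its start is at 121948457 in WT and at 121948507 in KO. The level of Gclc relative to Gclm was 0.952 in WT and 1.10 in KO, so the subunits stood near equal levels in both libraries.

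Sulfiredoxin (Srxn1, chromosome 2, 151931252 to 151937112, plus strand) repairs overoxidised peroxiredoxins, and cytosolic thioredoxin reductase (Txnrd1, chromosome 10, 82296696 to 82360469, plus strand) is a selenoprotein that keeps thioredoxin reduced. Srxn1 was listed at 34.9 FPKM in WT (32.6 to 37.3) and 30.9 in KO (28.8 to 33.1), a ratio of 0.884 (0.802 to 0.974). Txnrd1 was listed at 90.7 FPKM in WT (87.5 to 94.0) and 105.0 in KO (102 to 109), a ratio of 1.16 (1.10 to 1.22). These partners of peroxide removal thus stood on opposite sides of 1, both between the limits. The Txnrd1 row overlaps that of Eid3 in both tables. Txnrd1 stood at 0.470 of the level of its substrate Txn1 in WT and 0.489 in KO.

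Slc7a11 encodes xCT, the light chain of the cystine and glutamate exchanger that brings in cystine for glutathione synthesis (chromosome 3, 50168858 to 50247535, minus strand). It was the lowest of the members, at 5.75 FPKM in WT (5.26 to 6.28) and 3.05 in KO (2.70 to 3.43), from an estimated 497 and 271 fragments. The ratio was 0.530 (0.455 to 0.616), a log2 ratio of -0.92. It was the only member whose whole interval lay past a limit. Its heavy chain partner Slc3a2, which also pairs with other amino acid transporters, went the other way, from 104 FPKM in WT to 160 in KO (ratio, 1.54; 1.46 to 1.62). Slc3a2 thus stood at 18.1 times the level of Slc7a11 in WT and at 52.5 times in KO. The markers of fibroblasts and mural cells were also lower in KO: the 3 that reached 1 FPKM (Col1a1, Col1a2 and Dcn) were all below 2/3, and the summed level of the 4 listed markers went from 520 FPKM in WT to 272 in KO. The summed microglia markers went from 673 FPKM to 522 FPKM, a ratio of 0.775, with 1 of 9 (Cd68) below 2/3. Lum was listed in WT only, and Pdgfrb had no row of its own. The row named Csf1r, counted among the microglia markers at 146 FPKM in WT and 135 in KO, spans Pdgfrb. It cannot be divided between the genes, so the microglia sum may hold Pdgfrb. Summed markers of endothelial cells went from 44.9 to 35.6 FPKM, with 2 of 5 above 3/2 and 1 below 2/3, and those of the oligodendrocyte lineage from 82.4 to 121 FPKM, with 3 of 6 above. The part of fibroblasts, mural cells, microglia, endothelial cells and the oligodendrocyte lineage, the last of which the shaking step was meant to deplete, in the ratios of Slc7a11 and Nqo1 was not tested.

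Across the members, 1 of the 9 listed genes (Mt3) had a ratio above 3/2, 1 (Slc7a11) below 2/3, and 7 lay between. Of the 17.8% of all analysed genes that were past the limits, the share above was 9.56% and the share below 8.28% of the analysed genes. The share was 14.6% among genes listed in both tables and 10.1% among those that also reached 5 FPKM. Read against these shares, 1 of 9 in each direction is no result about the members. The ratio was higher in KO for 5 members and lower for 4, with a median log2 ratio of 0.08 against 0.02 over all genes listed in both tables. Of the 7 NRF2 targets, 3 were higher and 4 lower, with a median log2 ratio of -0.13, and their summed level was 623 FPKM in WT and 641 in KO (ratio, 1.03). The NRF2 targets thus had no common direction. At the length of the longest transcript the interval left out 1 in 8 of the 9 members. With the shortest coding transcript the interval of Hmox1 included 1 as well. The share of all genes whose interval leaves out 1 was not counted, so this count is no result about the members.

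**Figure D3:**
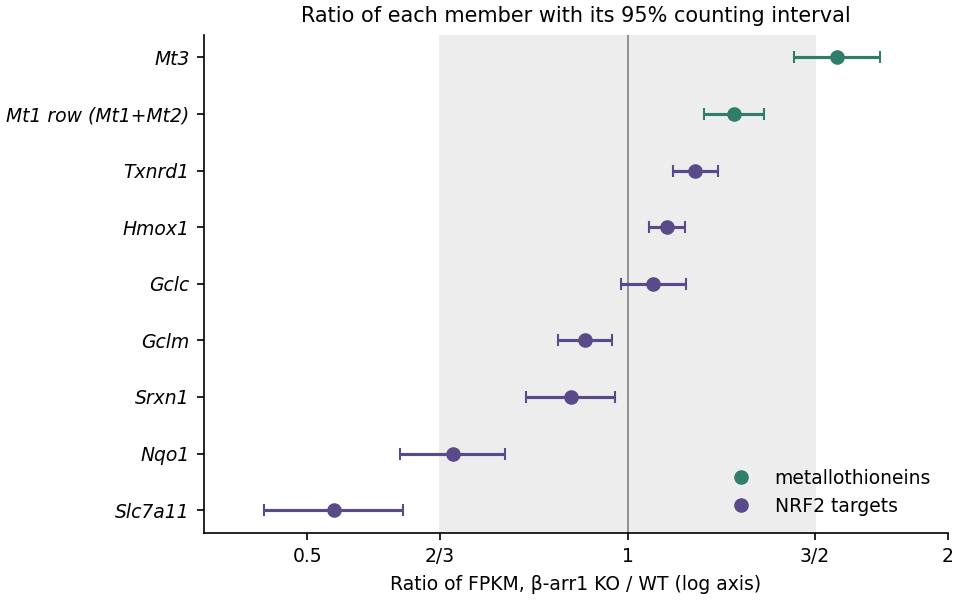
Ratio of FPKM, β-arr1 KO over WT (log axis), of the 9 members with 95% counting intervals, sorted by ratio, with the range between 2/3 and 3/2 shaded. Mt3 (1.57) and Slc7a11 (0.530) lie outside the shaded range, and the interval of Mt3 reaches into it.

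**Figure D4:**
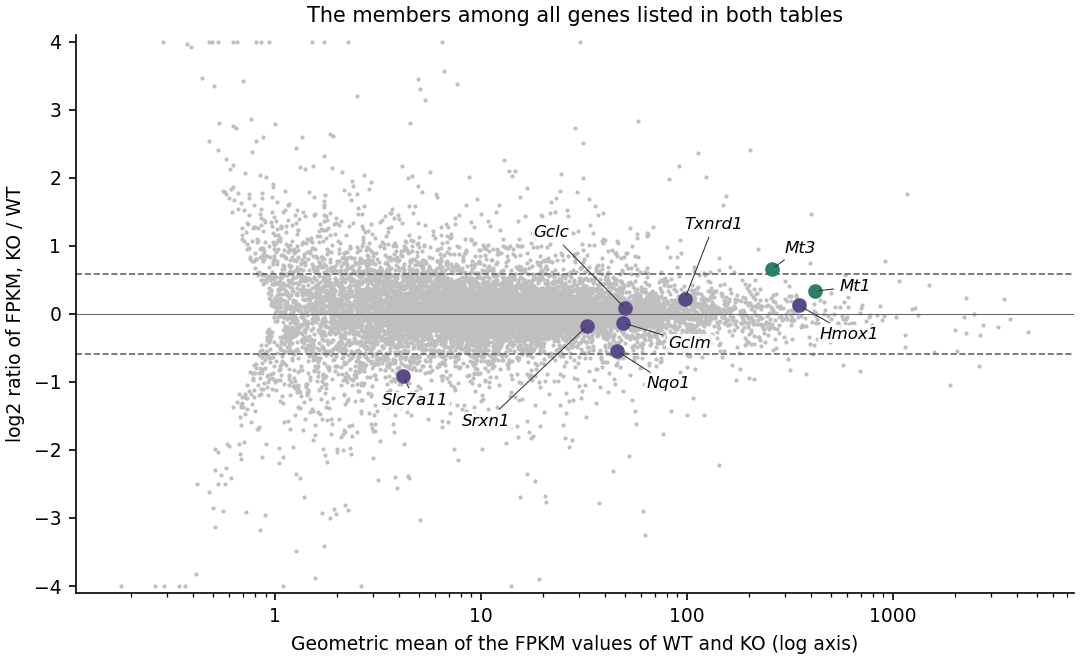
log2 ratio of KO over WT against the geometric mean FPKM (log axis) for the 12171 genes listed in both tables with at least 1 FPKM in a library, with the metallothioneins in green and the NRF2 targets in purple and the limits of 3/2 and 2/3 as dashed lines. Ratios beyond 4 on the log2 scale (21 genes) are drawn at the edge. Most members lie among the high genes close to the line of no difference, and Slc7a11 lies at the low end.

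The order of the levels was nearly the same in both libraries. In WT it ran from the Mt1 row through Hmox1, Mt3, Txnrd1, Nqo1, Gclm, Gclc and Srxn1 to Slc7a11. The counting intervals of Nqo1 and Gclm overlapped, as did those of Gclm and Gclc, so these neighbours are not set apart by depth. In KO the order from the fifth to the seventh place was Gclc, Gclm and Nqo1, and no neighbouring intervals overlapped. Except for Slc7a11, the members were high genes, at or above the 84.5th percentile of listed rows in both libraries. Slc7a11 was at the 45.5th percentile in WT and the 33.1st in KO. The genes nearest to the Mt1 row by distance in log2 FPKM over the 2 libraries were Dbi (389 FPKM in WT and 478 in KO), Capns1 and Myl6. The nearest to Slc7a11 were G2e3 (6.02 FPKM and 3.09 FPKM), 3110056K07Rik and Vat1l. Over 2 libraries such likeness is a description only.

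Several members share a chromosome or an annotation term. Of the 10, 5 lie on chromosome 8 (Mt1, Mt2, Mt3, Hmox1 and Nqo1) and 2 on chromosome 3 (Gclm and Slc7a11). In the annotation columns of the tables, response to oxidative stress was given for 7 of the 9 listed members and for 0.680% of all analysed genes. The members were chosen as metal-binding and antioxidant genes, so this shared term follows from the choice and is no result. Negative regulation of neuron apoptotic process was given for 5 members (Gclc, Gclm, Hmox1, Mt1 and Mt3) and for 0.688% of analysed genes. Like the first term, it describes genes that were chosen for their function, and it is no result either.

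Of the 11 regulators of NRF2 analysed, 10 lay between the limits and 1 was above 3/2. Nfe2l2 was listed at 58.0 FPKM in WT and 65.8 in KO (ratio, 1.13; 1.05 to 1.22). Its inhibitor Keap1 was listed at 14.3 FPKM and 13.8 FPKM (0.966; 0.860 to 1.08). The repressor Bach1, which competes with NRF2 at the same elements, was listed at 7.55 FPKM and 5.10 FPKM (0.676; 0.579 to 0.788), just inside the lower limit. The zinc sensor Mtf1 was listed at 4.35 FPKM and 4.59 FPKM (1.06; 0.902 to 1.24). Sqstm1, the autophagy receptor p62 that binds KEAP1, was the highest of the 12 regulators at 272 FPKM and 232 FPKM (0.854). The regulator above 3/2 was the repressor Bach2, from 0.613 FPKM to 1.07 FPKM (1.75; 1.23 to 2.52), and it was named after its values were seen because it lies under the level set for naming.

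Around the members, 10 lists with 107 genes of the same pathways were counted. Of the 97 analysed, 7 were above 3/2 and none was below 2/3, a share of 7.22%. Over all analysed genes the share was 17.8%, or 14.6% among genes listed in both tables. It was 10.1% among those that also reached 5 FPKM. The median log2 ratio over the lists was -0.00. All 11 analysed genes of the thioredoxin and peroxiredoxin list, all 7 of NADPH supply, all 8 of heme and iron, all 9 of ATF4 and its targets and all 7 of the glucocorticoid response lay between the limits. Their highest genes were Prdx5 (383 FPKM in WT and 367 in KO), Taldo1 of the pentose phosphate pathway (124 and 130 FPKM), the ferritin heavy chain Fth1 (3459 and 3018 FPKM), Atf4 (81.2 and 93.4 FPKM) and the phosphatase Dusp1 (93.2 and 118 FPKM). The KO row of Prdx5 also spans Trmt112 and Esrra, which the WT row does not.

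Besides Bach2, the genes past the limits were Sod2, Sod3, Slc39a12, Slc39a1, Slc3a2 and the Gstm1 row. Sod2, the mitochondrial manganese superoxide dismutase, was listed at 12.9 FPKM in WT and 45.0 in KO, a ratio of 3.49 (3.14 to 3.88). The extracellular enzyme Sod3 was listed at 60.3 FPKM and 92.2 FPKM (1.53; 1.44 to 1.62), while the cytosolic Sod1, the highest of its list by mean level, was listed at 88.4 FPKM and 87.2 FPKM (0.987). The zinc transporter Slc39a12 had the highest ratio of the lists, 4.26 (3.25 to 5.65), from 2.74 FPKM in WT to 11.7 in KO. Slc39a1 was listed in KO only, at 51.3 FPKM, and it lies in a stretch that the tables divide differently: the WT row named Crtc2 (98.5 FPKM) covers Jtb, Slc39a1 and Crtc2, which have separate rows in KO (23.4, 51.3 and 14.3 FPKM). Its call therefore rests on the division of rows. The other zinc transporters, Slc39a7 being the highest at 118 FPKM in WT and 108 in KO (0.920), lay between the limits, as 16 of the 18 analysed genes of the list did.

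The glutathione transferase row named Gstm1 went from 242 FPKM in WT to 665 in KO, a ratio of 2.75 (2.63 to 2.88). It spans Gstm1, Gstm2, Gstm3, Gstm4, Gstm6 and Gstm7, close relatives among which reads may be shared, and it cannot be divided between them. The other 13 analysed genes of glutathione synthesis and use lay between the limits. In the detoxification and export list, Slc3a2 was above 3/2 and the other 7 analysed genes lay between, with the epoxide hydrolase Ephx1 highest at 237 FPKM and 287 FPKM (1.21). The ferritin light chain Ftl1, named after its values were seen, came closest to the lower limit (1930 FPKM in WT and 1302 in KO; 0.675, 0.658 to 0.692). Ferritin genes have many near-identical copies in the genome, so the values of Fth1 and Ftl1 are uncertain.

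**Figure D5:**
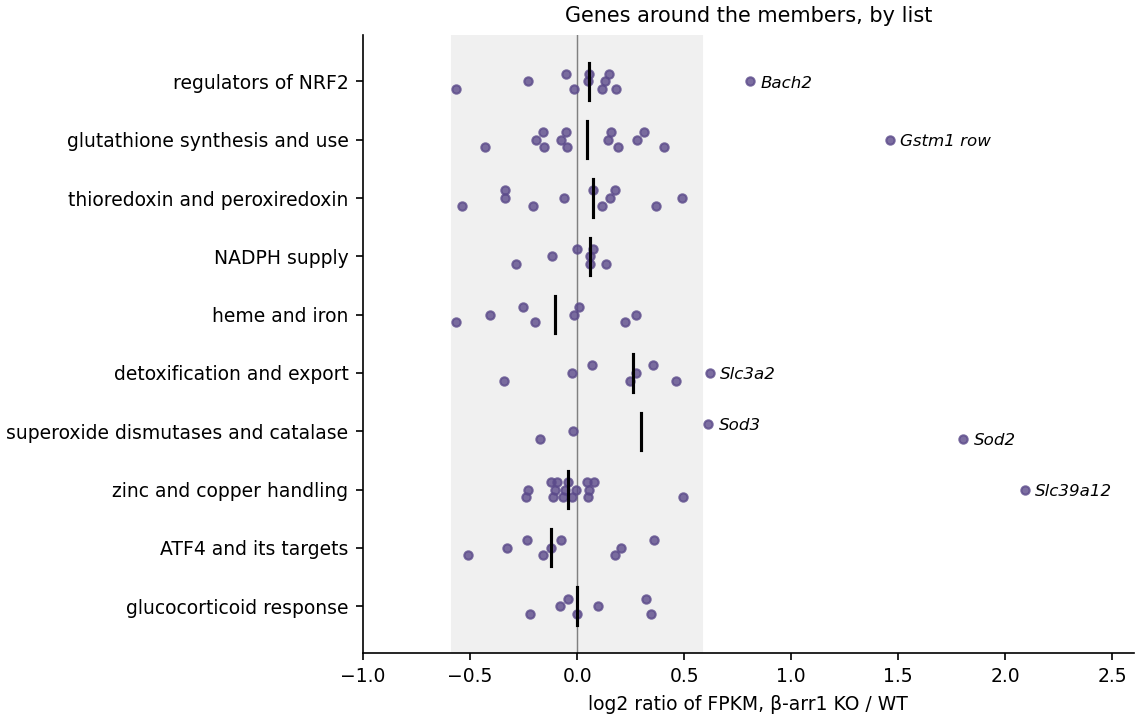
log2 ratio of KO over WT for the analysed genes listed in both tables, by pathway list, with the list median as a vertical bar and the range between 2/3 and 3/2 shaded; points are spread vertically for clarity only. Most genes lie in the shaded range, and Bach2, the Gstm1 row, Slc3a2, Sod2, Sod3 and Slc39a12 lie to its right.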

How the data were processed

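RNA from cultured DG astrocytes of WT and β-arr1 KO mice was sequenced as 1 library each (paired reads of 100 bases). The authors aligned reads to mm9 with TopHat (version 1.4.0 in the submitters' processing notes) and estimated expression with Cufflinks, and deposited 1 table of FPKM values per library, which are relative to transcript length and to the mapped fragments. The version of Cufflinks is not given in the sources used here. Summed over all rows, the deposited values came to 374406 FPKM (WT) and 373279 FPKM (KO).

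The tables were joined by symbol, the highest row being kept where a symbol recurred, and starts were raised by 1 so that coordinates count from 1. Fragments per gene were estimated from the steps of low values (below 0.15 FPKM) and the longest GENCODE transcript. The members and gene lists were chosen with earlier results of these data known. Named genes were the members, list genes past the limits with at least 5 FPKM in a library, the highest gene of each list, Nfe2l2, Keap1, Bach1, Mtf1, Arrb1, the genes nearest to 2 members, and the markers needed. No p-value was computed. Alternatives were other minimum levels, pseudocounts, scalings, summed rows, limits and transcript lengths. Protein sequences of the metallothioneins were not used here. The computation was tested on simulated data. Python 3.11.15 was run with pandas 2.3.3, scipy 1.17.1, numpy 2.4.6 and, for drawing, matplotlib 3.10.9.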

Additional observations from a re-analysis of the deposited data

How the results depend on the processing

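The ratios of the 9 listed members stayed inside their counting intervals under 5 alternatives of pseudocount and scaling (45 values). Each scaling multiplies all ratios by the same factor, here close to 1, and a pseudocount moves genes of high level little. Staying inside was therefore largely set in advance, except for the low gene Slc7a11 with a pseudocount. Summing rows of the same symbol and counting fragments without the effective length left every member ratio equal by construction, since no member symbol recurs and the length cancels, and say nothing about stability. They ranged from 1.55 to 1.58 for Mt3, from 0.523 to 0.600 for Slc7a11 and from 0.676 to 0.691 for Nqo1, and the summed metallothionein ratio from 1.35 to 1.38. Limits of 2 and 1/2 left 0 members above and 0 below, since Mt3 and Slc7a11 then lie between them, and left 4 pathway list genes above. For all genes, limits of 2 and 1/2 gave 604 above and 559 below. A minimum of 0.1 FPKM gave 2070 and 1899, a minimum of 5 FPKM gave 640 and 539, and 1 FPKM in both libraries gave 750 and 622. Pathway list genes below numbered 1 with a minimum of 0.1 FPKM and 1 with no minimum for genes listed in both tables (Zbtb16 each time, at 0.127 and 0.0619 FPKM), and 1 after scaling to the same median ratio and 1 after scaling to the same upper quartile (Ftl1 each time, at 0.666). Added after seeing the data, leaving out the Gstm1 row gave 6 pathway list genes above, and so did keeping only genes listed in both tables. No paired analysis was possible because each genotype has 1 library. For the same reason no library could be left out. Depth limits Mt3 and Nqo1, whose intervals span a limit. The intervals do not cover differences between mice or cultures.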
